A study of Mus musculus with 6 samples.

Results

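The genes described here are 39 type I interferon-stimulated genes, picked by symbol from a table of 55291 genes. All 39 symbols were in the table. They include the chains of the interferon receptor and transcription factors of the pathway beside the genes that interferon induces. Transcripts were measured by RNA-seq in material labelled bone marrow, flushed from the femurs of mice aged 6 to 8 weeks. The knockout group held 3 mice that lack P2rx7 by label, here called knockouts A, B and C. The wild-type group held 3 mice, WT 1, 2 and 3, and each mouse gave 1 library. P2rx7 encodes an ion channel that opens on binding extracellular ATP, and the series title links it to bone ageing and to the mitochondria of mesenchymal stromal cells. The labels name no strain, sex, knockout allele or further treatment for either genotype, and the agent or allele, if any, that both genotypes share is not given. The numbers of the wild types and the letters of the knockouts pair no mice.

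Type I interferons are secreted proteins that cells make after sensing foreign or misplaced nucleic acid. They bind the receptor chains IFNAR1 and IFNAR2, whose kinases JAK1 and TYK2 phosphorylate STAT2. With IRF9 it enters a complex that binds the interferon-stimulated response element in the promoters of responsive genes. In marrow, type I interferon is known for driving quiescent blood stem cells into cycle and for restraining osteoclast formation.

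Library totals were 18716704 to 22382281 counts in knockouts and 20037343 to 23575652 counts in wild types. P2rx7 itself was at 6.63, 6.37 and 6.24 FPKM in knockouts A, B and C, against 10.1, 10.2 and 10.5 FPKM in WT 1, 2 and 3. It fell by 0.67 ± 0.05 on the log2 scale (SE, adjusted p = 0.0109 by edgeR's quasi-likelihood test), so transcripts of the gene were lower but present in the knockouts. By an exact permutation test on CPM, two-sided, p was 0.1, and 3 mice against 3 can give no smaller value. Traces of other tissues set libraries apart. Gh, the growth hormone gene of the pituitary, had 23 counts in knockout A, 0 in knockouts B and C, and 54 to 82 in the wild types. Alb, the serum albumin gene of the liver, had 46 counts in knockout B, 36 in knockout C and 0 in the remaining libraries. The label of marrow was checked against marker genes. Of 8 erythroid markers, 7 had at most 10 counts in every library, and the T cell gene Cd3e had 0 counts in all. Of 9 B and plasma cell markers, 5 had at most 10 counts in every library. The defining markers of red cells, T cells and B cells were thus near 0, which goes against whole flushed marrow as the label has it, and the material is called by its label here. The collagen gene Col1a1 was at 1165 to 1272 FPKM in knockouts and 1289 to 1620 FPKM in wild types. A list of 8 monocyte and macrophage markers summed to 3027 to 3338 CPM in knockouts and 3054 to 3095 CPM in wild types. A list of 7 marrow stroma markers summed to 5099 to 6087 CPM in knockouts and 2037 to 4144 CPM in wild types.

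Most of the 39 genes had somewhat higher levels in the knockouts, and 1 of them passed the test. Ifi27l2a rose by 0.60 ± 0.08 on the log2 scale (SE; edgeR adjusted p = 0.0490), and no listed gene fell. Across all 15478 genes tested, 0.103% passed at an adjusted p below 0.05, 0.0581% with higher and 0.0452% with lower levels in knockouts. At an adjusted p below 0.1 there were 4 of the 39 genes, against 0.394% of all genes tested. The log2 fold change was above 0 for 37 of the 39 genes, against 51.2% of all genes tested. The median was 0.24 over the 39 genes and 0.00 over all genes tested, and the values ran from -0.06 for Ifnar1 to 0.72 for Irf7. An unadjusted p below 0.05 with higher levels in knockouts was found for 28 of the 39, against 8.35% of all genes tested, and 0 of the 39 had one in the other direction, against 8.22% of all genes. In 27 of the 39 genes all 3 knockouts lay above all 3 wild types in CPM, against 11.5% of all genes tested. In 0 of the 39 did all knockouts lie below, against 10.4% of all genes. In bulk RNA a change in the cells present and a change in the RNA made per cell cannot be told apart.

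**Figure D1:**
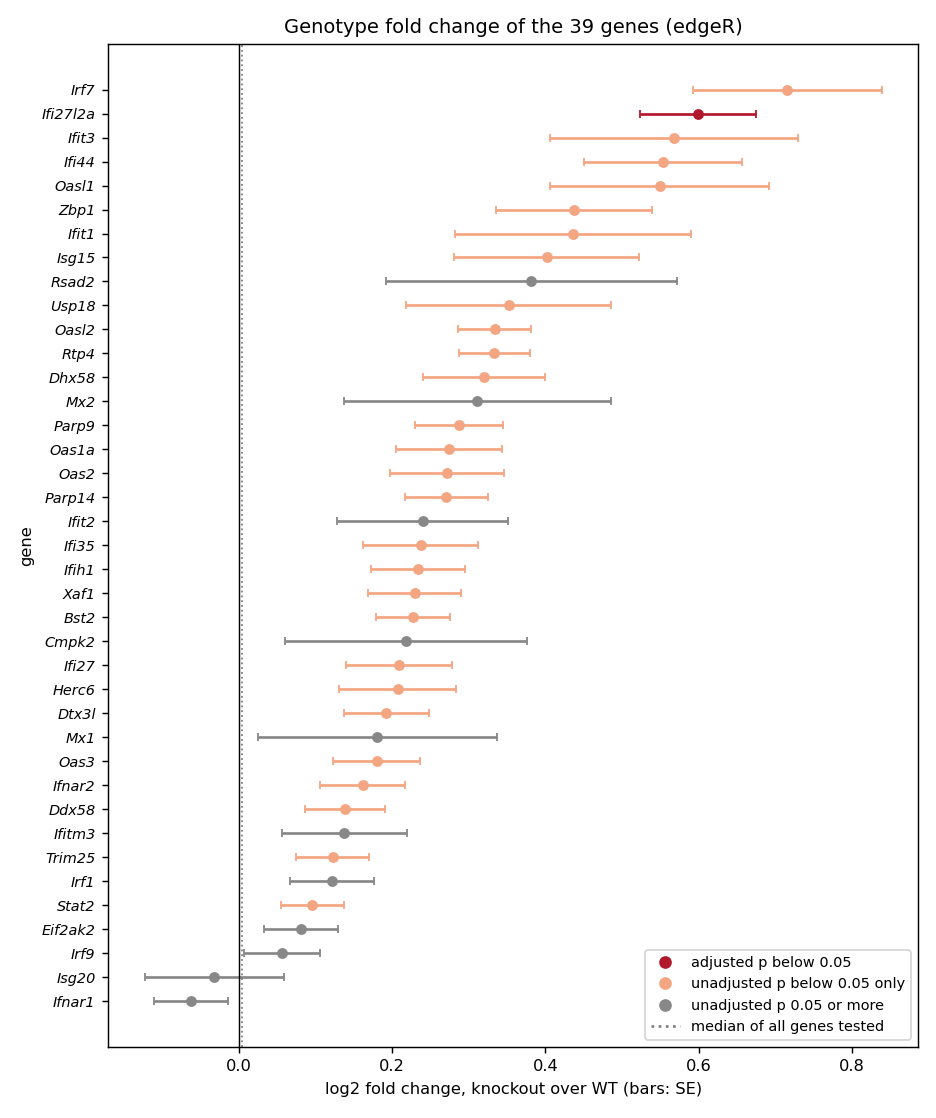
Log2 fold change of knockout over WT for each of the 39 genes, with bars of 1 SE from the edgeR fit and the median of all genes tested as a dotted line; dark red marks an adjusted p below 0.05, light red an unadjusted p below 0.05 only, and grey the rest. Irf7 is at the top with 0.72, Ifi27l2a is the gene past the adjusted threshold, and Isg20 and Ifnar1 lie below 0.

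The single libraries did not share the difference evenly. Knockout A lay above all wild types in 27 of the 39 genes, knockout B in 38 and knockout C in 33, while the shares over all genes tested were 26.2%, 32.2% and 30.6%. Knockout B was the highest of the 6 libraries in 24 genes, knockout C in 12 and knockout A in 2. Over all genes tested, these libraries were the highest in 20.4%, 16.4% and 13%. WT 2 was the lowest of the 6 libraries in 31 of the 39 genes, against 26.6% of all genes tested. WT 1 was the highest of the wild types in 22 genes and WT 3 in 16. The median log2 level relative to the wild-type mean was 0.19, 0.30 and 0.22 in knockouts A, B and C, and 0.05, -0.08 and 0.03 in WT 1, 2 and 3. Among the wild types WT 1 and WT 2 were thus the farthest apart. Without WT 2 the median over the 39 genes was 0.20, and 22 of them had an unadjusted p below 0.05, all with higher levels in knockouts, against 5.54% of all genes tested.

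**Figure D2:**
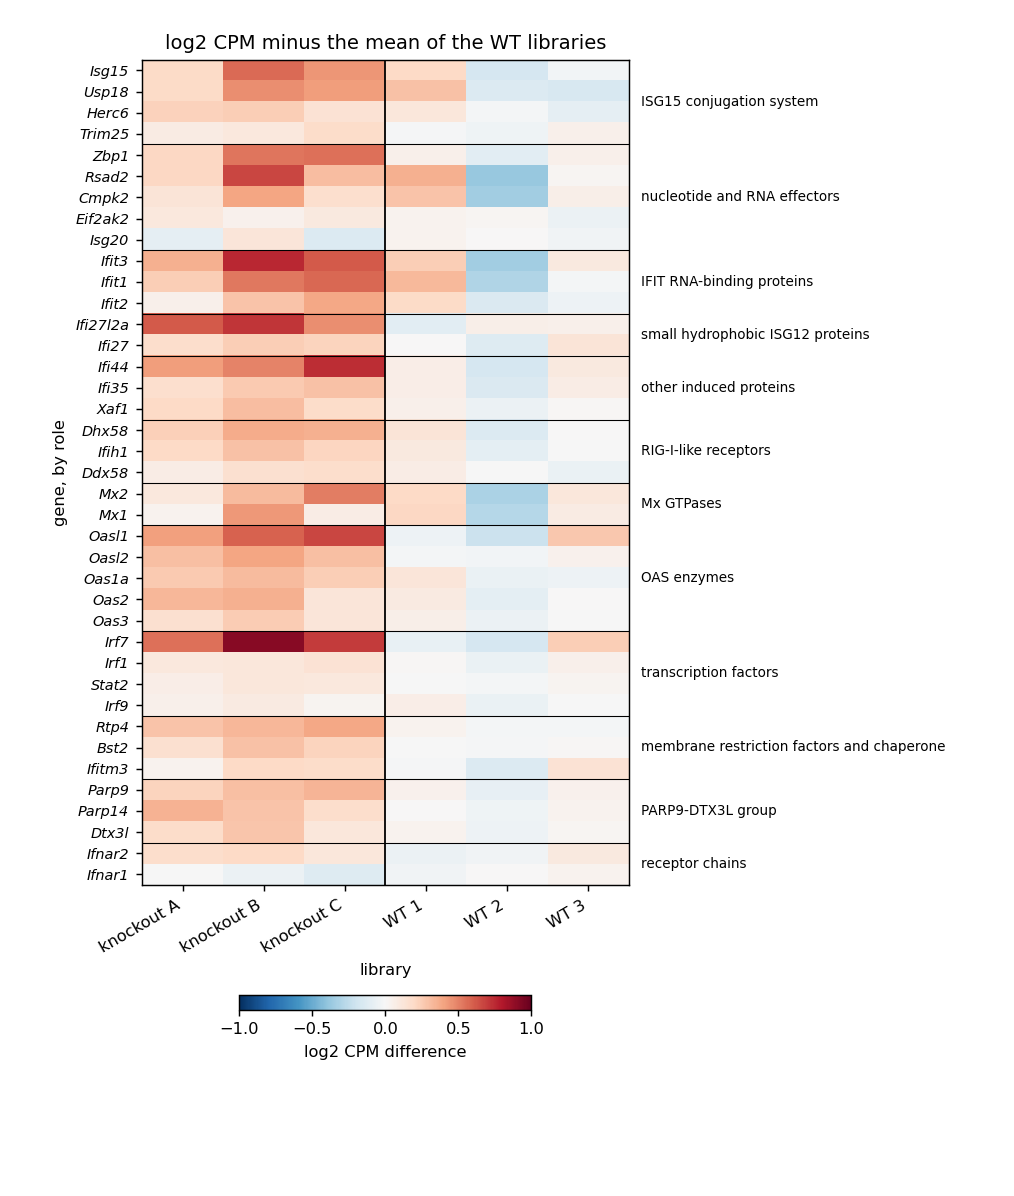
Log2 CPM of each of the 39 genes (rows, grouped by role) in each library (columns), as a difference from the mean of the 3 WT libraries. Red is higher and blue lower; the knockout columns are mostly red, and WT 2 is the lowest library in 31 genes.

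Since Gh divides the libraries, knockout A was also set against the wild types without knockouts B and C. In that fit, the median log2 fold change of the 39 genes was 0.18, 37 were above 0, and 0 passed the adjusted threshold. Of the 39 genes 8 then had an unadjusted p below 0.05, against 2.18% of all genes with higher levels in the knockout. Knockout A lay above all wild types in 27 genes, against 25.4% of all genes in that fit. When all 6 libraries were fitted with the Gh status as a covariate, the median was also 0.18, again 0 passed, and 10 had an unadjusted p below 0.05, against 3.08% of all genes with higher levels in knockouts. Both of these fits rest on knockout A alone for the genotype effect. In the fit without knockouts B and C the spread came from the wild types alone, and knockout A was assumed to vary as they do, so these p-values are no replicated test of the knockout.

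Levels per length differed widely among the 39 genes. Ifitm3, which encodes a membrane protein that blocks virus entry by fusion, had the highest mean over all libraries at 700.4 FPKM. It was at 687, 757 and 752 FPKM in knockouts A, B and C, against 658, 610.4 and 739 FPKM in WT 1, 2 and 3. The genotypes overlapped, since WT 3 lay above knockout A, and the log2 fold change was 0.14 ± 0.08 (adjusted p = 0.436). Next came Bst2 with a mean of 200.3 FPKM, Ifi27l2a with 167 FPKM and Isg15 with 43.9 FPKM, and the lowest means were 1.95 FPKM for Herc6 and 1.54 FPKM for Mx2.

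Among the receptor chains and the factors that carry the signal 0 genes passed the test. Ifnar1 was at 24.4 to 27.0 FPKM in knockouts and 26.1 to 27.6 FPKM in wild types, with overlap. Ifnar2 was at 38.9 FPKM in knockout A and 36.8 FPKM in knockout C, the lowest, against 32.6 to 36.8 FPKM in wild types, so knockout C and WT 3 were level. The log2 fold changes were -0.06 ± 0.05 for Ifnar1 and 0.16 ± 0.06 for Ifnar2 (SE, edgeR adjusted p = 0.557 and 0.225). Stat2 and Irf9, which encode subunits of the interferon-activated complex, had log2 fold changes of 0.10 ± 0.04 and 0.06 ± 0.05 (SE, adjusted p = 0.294 and 0.607). Irf1, a factor induced strongly by interferon gamma as well, was at 0.12 ± 0.05 (adjusted p = 0.314).

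Irf7, the factor that amplifies interferon production once interferon has induced it, had the highest fold change of the 39. It was at 37.0, 46.9 and 40.7 FPKM in knockouts A, B and C, against 23.7, 22.6 and 29.9 FPKM in WT 1, 2 and 3. The genotypes did not overlap, with WT 3 the highest wild type and knockout A the lowest knockout. The log2 fold change was 0.72 ± 0.12 (SE), and it did not pass over all genes tested (adjusted p = 0.0994 by edgeR). Its exons overlap those of Phrf1, on the opposite strand, by 45 bases, and Phrf1 had 1461 to 1909 counts per library, against 1799 to 3364 for Irf7. Without WT 3 Irf7 was among 4 listed genes that passed, and 1.10% of all genes then passed.

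Ifi27l2a encodes a small hydrophobic protein of the ISG12 family, which interferon induces. It was at 204, 217 and 182 FPKM in knockouts A, B and C, against 122, 139.6 and 138 FPKM in WT 1, 2 and 3. Each knockout lay above each wild type, and the fitted ratio was 1.51. The gene lies at chr12:103442167-103443680 on the minus strand (GRCm38). Ifi27, of the same family, was at 45.3 to 46.9 FPKM in knockouts and 36.8 to 43.9 FPKM in wild types. The log2 fold change of Ifi27 was 0.21 ± 0.07 (adjusted p = 0.217). The call of Ifi27l2a was lost without WT 1 (adjusted p = 0.132), without knockout A (0.0986), without knockout B (0.240) and without knockout C (0.0973), while its log2 fold change was 0.54 to 0.66 over the fits that left out 1 library.

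All 5 OAS-family genes had knockouts above wild types without overlap, against 11.5% of all genes tested, and 0 of 5 passed the test. OAS enzymes make short 2′-5′-linked adenylate chains on sensing double-stranded RNA, and these switch on RNase L; OASL proteins belong to the same family. Oasl2 was at 29.1, 30.7 and 28.8 FPKM in knockouts A, B and C, against 23.0, 23.3 and 24.3 FPKM in WT 1, 2 and 3. Its values were tight within each genotype, and the log2 fold change was 0.33 ± 0.05 (SE, adjusted p = 0.0708 by edgeR). The fold changes of Oasl1, Oas1a, Oas2 and Oas3 were 0.55, 0.27, 0.27 and 0.18 on the log2 scale. P2rx7 lies on chromosome 5 as well, and Oas1a, Oas3 and Oas2 lie 1.74, 1.87 and 1.89 Mb from it, with Oasl1 and Oasl2 7.71 and 7.73 Mb away (GRCm38). The labels do not give the origin of the knockout allele, and whether linked sequence differs between the genotypes was not tested. Of all 50-base words in Oas1a transcripts, 57.6% also occur in Oas1g, so reads may be split between them. Oas1g itself averaged 10.7 ± 0.428 CPM in knockouts, against 8.15 ± 0.596 CPM in wild types (SD, n = 3 each; edgeR adjusted p = 0.159).

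The cytosolic RNA sensors of the RIG-I family had knockouts above wild types without overlap in all 3 cases, against 11.5% of all genes tested, with 0 of 3 past the threshold. Dhx58 encodes LGP2, which modulates signalling by the other sensors. It was at 11.3, 12.3 and 12.2 FPKM in knockouts A, B and C, against 10.4, 8.75 and 9.61 FPKM in WT 1, 2 and 3. WT 1 came closest to the knockouts, and the log2 fold change was 0.32 ± 0.08 (SE, adjusted p = 0.159). Ifih1, which encodes the sensor MDA5, and Ddx58, which encodes RIG-I, had log2 fold changes of 0.23 and 0.14.

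Of the PARP9 group, all 3 genes had knockouts above wild types without overlap, against 11.5% of all genes tested, and 0 passed. Parp9 and Dtx3l encode partners, an ADP-ribosyltransferase and a ubiquitin ligase, and Parp14 is a further ADP-ribosyltransferase of the same stretch of chromosome 16. Parp9 was at 12.8, 13.3 and 13.7 FPKM in knockouts A, B and C, against 11.1, 10.3 and 11.2 FPKM in WT 1, 2 and 3. Parp14 was at 14.2, 13.4 and 12.5 FPKM in knockouts A, B and C, against 11.1, 10.9 and 11.5 FPKM in WT 1, 2 and 3. Every knockout thus exceeded every wild type in both genes. Log2 fold changes were 0.29 ± 0.06 for Parp9, 0.27 ± 0.05 for Parp14 and 0.19 ± 0.06 for Dtx3l (SE), with adjusted p-values of 0.125, 0.125 and 0.186 by edgeR. Parp9 and Dtx3l overlap on opposite strands over 458 exon bases, and the use of strand in counting is not given, so reads there cannot be told apart.

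Rtp4 encodes a chaperone that carries receptors to the cell surface and is induced by interferon. It was at 42.0, 42.9 and 44.6 FPKM in knockouts A, B and C, against 35.1, 34.2 and 34.1 FPKM in WT 1, 2 and 3. Both genotypes were tight and apart. The log2 fold change was 0.33 ± 0.05 (SE, adjusted p = 0.0663 by edgeR). Of its 50-base words, 11.6% also occur in the overlapping gene Gm45338, which had 28 to 40 counts per library against 1500 to 1984 of Rtp4. Bst2, which encodes tetherin, a membrane protein that holds budding viruses on the cell, was at 208, 225 and 214 FPKM in knockouts A, B and C, against 183, 185 and 187 FPKM in WT 1, 2 and 3. The genotypes were again apart, at 0.23 ± 0.05 on the log2 scale (adjusted p = 0.136).

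**Figure D3:**
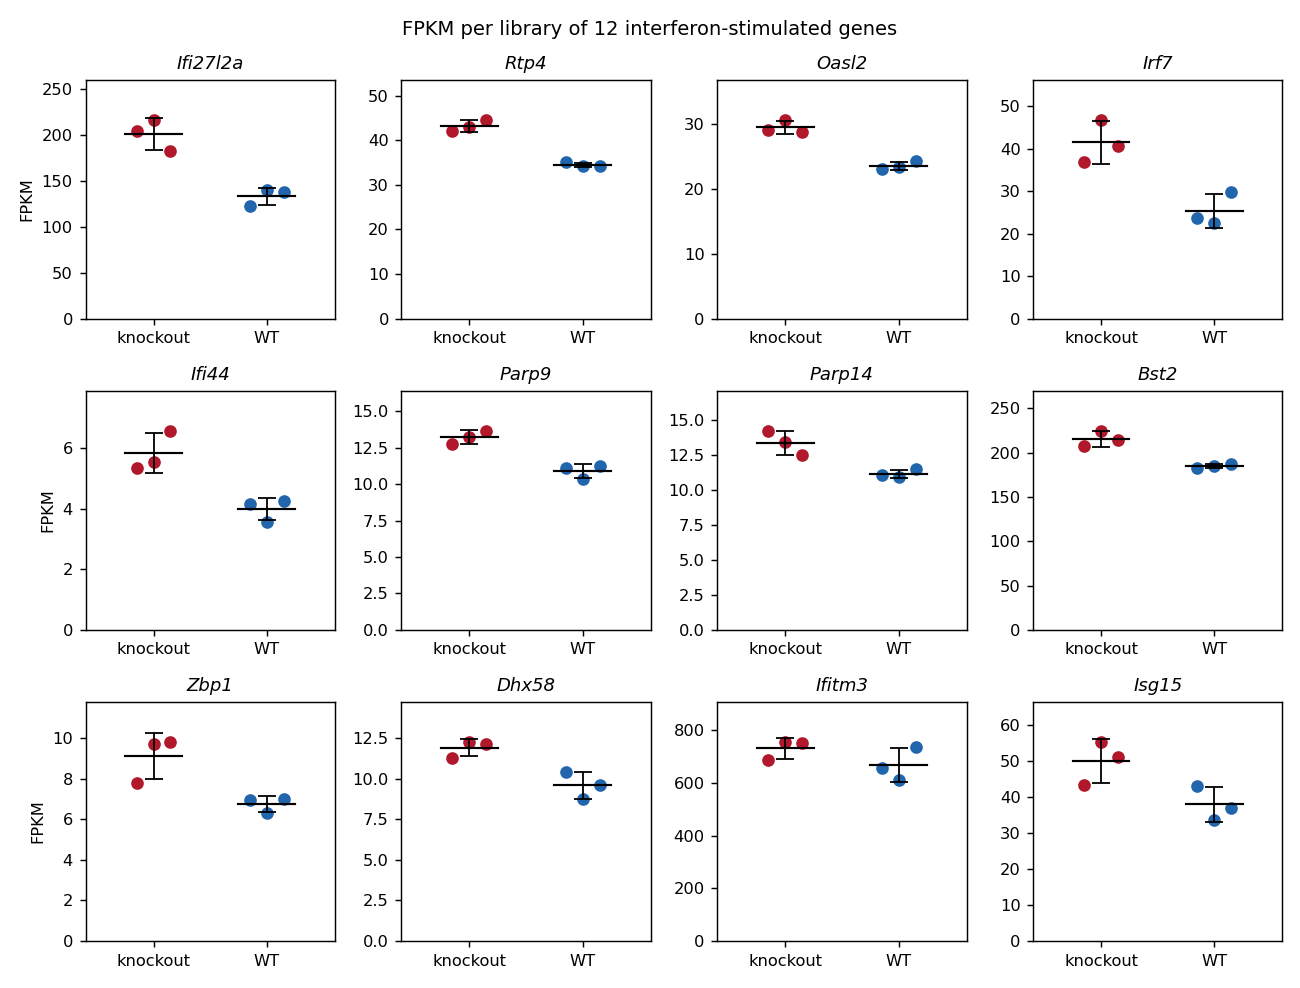
FPKM of 12 of the genes in each library (points), with the mean and SD of the 3 knockouts (red, left) and the 3 WT (blue, right); each axis starts at 0. Shown are the 10 genes of smallest p and the most abundant genes; Ifitm3 overlaps between genotypes, in Isg15 knockout A and WT 1 lie nearly level, and the other 10 do not overlap.

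The ISG15 system attaches the ubiquitin-like protein ISG15 to other proteins. Isg15 was at 43.3, 55.4 and 51.0 FPKM in knockouts A, B and C, against 43.2, 33.7 and 37.0 FPKM in WT 1, 2 and 3. Knockout A and WT 1 were level in FPKM and overlapped in CPM, and the log2 fold change was 0.40 ± 0.12 (SE, adjusted p = 0.192 by edgeR). Usp18, which removes ISG15 and restrains signalling at IFNAR2, was at 5.97 to 7.10 FPKM in knockouts and 4.66 to 6.32 FPKM in wild types. The ligases Herc6 and Trim25 had log2 fold changes of 0.21 and 0.12. Of these 4 genes 0 passed, against 0.103% of all genes tested. For Herc6 and Trim25 the knockouts lay above the wild types without overlap, against 11.5% of all genes tested.

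The IFIT proteins bind foreign RNA, and Ifit1, Ifit2 and Ifit3 had log2 fold changes of 0.44 ± 0.15, 0.24 ± 0.11 and 0.57 ± 0.16 (SE). Their genotypes overlapped for Ifit1 and Ifit2, with WT 1 above knockout A. For Ifit3 the knockouts lay above the wild types without overlap, against 11.5% of all genes tested. None of the 3 passed (adjusted p = 0.233, 0.329 and 0.184 by edgeR). Ifit3 shares 51.2% of its 50-base words with Ifit3b, whose own log2 fold change was 0.45 ± 0.20 (SE, adjusted p = 0.303), so the split of reads between them is uncertain. Mx1 and Mx2, dynamin-like GTPases against viruses, both overlapped between genotypes. Mx1 was at 2.74 to 3.58 FPKM in knockouts, against 2.20 to 3.05 FPKM in wild types, and Mx2 at 1.47 to 1.94 FPKM in knockouts, against 1.10 to 1.56 FPKM in wild types. Rsad2, which encodes viperin, and its neighbour Cmpk2 act together to make a chain-ending nucleotide. Rsad2 was at 3.78 to 5.15 FPKM in knockouts and 2.52 to 4.16 FPKM in wild types, and Cmpk2 at 2.97 to 3.53 FPKM in knockouts and 2.14 to 3.28 FPKM in wild types. Neither passed (adjusted p = 0.359 and 0.524).

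Zbp1, a sensor of Z-form nucleic acid that can start cell death, was at 7.79, 9.68 and 9.81 FPKM in knockouts A, B and C, against 6.93, 6.32 and 7.01 FPKM in WT 1, 2 and 3. Knockout A was the nearest of the knockouts to the wild types, and the log2 fold change was 0.44 ± 0.10 (SE, adjusted p = 0.157 by edgeR). Ifi44 was at 5.35, 5.56 and 6.58 FPKM in knockouts A, B and C, against 4.14, 3.57 and 4.26 FPKM in WT 1, 2 and 3. The genotypes were apart, at 0.55 ± 0.10 (adjusted p = 0.113). Xaf1 and Ifi35 had log2 fold changes of 0.23 and 0.24, with knockouts above wild types without overlap, against 11.5% of all genes tested. The kinase gene Eif2ak2, whose product PKR halts translation on binding double-stranded RNA, and the exonuclease gene Isg20 were at 0.08 ± 0.05 and -0.03 ± 0.09 (SE, adjusted p = 0.439 and 0.896).

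The promoters of 28 of the 39 genes were in RefSeq's table for GRCm38.p6, as 250 bases before and 50 after the transcription start. They were searched on both strands for the core of the interferon-stimulated response element, which is GAAA, any 2 bases and GAAA again, and overlapping matches were counted singly. A match was present for 12 of the 28 genes (42.9%), against 3.99% of 27025 genes and 3.44% of all 32851 promoters in the table. The median log2 fold change was 0.23 over the 12 genes with a match and 0.21 over the 16 without it, and 8 of the 12 and 11 of the 16 had knockouts above wild types without overlap, against 11.5% of all genes tested. Shown are the promoters of the genes of smallest p with a match, Bst2, Oas1a and Ifih1, and of those without one, Oasl2 and Irf7, so that the motif can be seen beside its absence. Capitals mark the matches. In Bst2 they begin 130 and 124 bases before the start, in Oas1a 20 and 14 bases before it, and in Ifih1 32 bases after it. The windows are chr8:71537423-71537722, chr5:120907476-120907775 and chr2:62646206-62646505 on the minus strand for Bst2, Oas1a and Ifih1, chr5:114896684-114896983 on the plus strand for Oasl2, and chr7:141266375-141266674 on the minus strand for Irf7.
Bst2: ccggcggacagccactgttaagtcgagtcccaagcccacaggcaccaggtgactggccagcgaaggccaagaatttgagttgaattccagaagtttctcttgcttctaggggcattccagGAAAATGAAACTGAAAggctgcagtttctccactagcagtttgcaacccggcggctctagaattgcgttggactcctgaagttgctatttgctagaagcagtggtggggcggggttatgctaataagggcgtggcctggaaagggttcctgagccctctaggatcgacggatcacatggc
Oas1a: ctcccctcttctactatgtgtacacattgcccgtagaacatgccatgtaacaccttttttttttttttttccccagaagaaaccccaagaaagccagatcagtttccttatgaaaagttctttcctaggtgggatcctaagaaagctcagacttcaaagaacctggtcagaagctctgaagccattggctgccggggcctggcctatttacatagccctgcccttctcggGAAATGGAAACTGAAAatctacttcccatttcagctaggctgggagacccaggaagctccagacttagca
Ifih1: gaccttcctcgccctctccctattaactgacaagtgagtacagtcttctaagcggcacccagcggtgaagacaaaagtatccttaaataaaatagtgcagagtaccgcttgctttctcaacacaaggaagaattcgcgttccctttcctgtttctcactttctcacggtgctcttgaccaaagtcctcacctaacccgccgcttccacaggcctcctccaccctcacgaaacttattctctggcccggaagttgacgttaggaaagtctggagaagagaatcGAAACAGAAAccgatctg
Oasl2: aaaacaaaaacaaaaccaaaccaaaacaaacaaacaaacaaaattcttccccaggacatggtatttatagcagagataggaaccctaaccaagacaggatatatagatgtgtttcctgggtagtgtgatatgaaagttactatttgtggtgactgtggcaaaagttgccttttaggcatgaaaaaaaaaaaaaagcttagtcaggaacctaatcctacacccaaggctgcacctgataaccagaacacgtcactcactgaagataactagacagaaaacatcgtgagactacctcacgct
Irf7: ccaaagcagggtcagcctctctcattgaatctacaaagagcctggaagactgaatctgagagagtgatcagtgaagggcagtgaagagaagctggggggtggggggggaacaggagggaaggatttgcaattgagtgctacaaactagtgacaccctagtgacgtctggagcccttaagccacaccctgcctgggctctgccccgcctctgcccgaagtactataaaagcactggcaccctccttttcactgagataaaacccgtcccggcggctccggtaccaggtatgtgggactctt

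Other genes of the pathway were taken as lists, which were chosen with earlier results of these data known. The 21 interferon ligand genes were nearly silent: 16 had 0 counts in every library, and summed ligand counts per library were 1, 1 and 0 in the knockouts, against 4, 3 and 5 in the wild types. None of them entered the test. Where no count was seen, the upper limit of 3 counts came to 0.134 to 0.160 CPM per knockout library and 0.127 to 0.150 CPM per wild-type library. Counts of Ifnz made up 1, 1 and 0 of those in knockouts and 2, 2 and 4 of those in wild types. Markers of plasmacytoid dendritic cells, which make much type I interferon, were low apart from Tcf4, with Siglech at 0.540 to 1.33 CPM in knockouts and 0.551 to 3.67 CPM in wild types.

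Over 61 further interferon-stimulated genes outside the 39, the log2 fold change had its median at 0.24 and was above 0 in 56. None passed over all genes tested by edgeR, while 39 had an unadjusted p below 0.05 with higher levels in knockouts and 1 with lower levels. Over all genes tested, 8.35% had such a p with higher and 8.22% with lower levels. Knockouts lay above wild types without overlap in 39 (63.9%) and below in 1, against 11.5% and 10.4% of all genes tested. The 2 genes of smallest p were Psmb8, a subunit of the immunoproteasome, and Ddx60, an RNA helicase. Psmb8 averaged 54.5 ± 2.23 CPM in knockouts, against 44.5 ± 1.41 CPM in wild types, and Ddx60 averaged 23.0 ± 1.16 CPM in knockouts, against 17.2 ± 1.34 CPM in wild types (SD, n = 3 each; edgeR adjusted p = 0.112 and 0.117). DESeq2 called 14 of the 61, and 3.20% of all genes. Because the list of 61 was chosen with earlier results of these data known, its values are no independent test of the listed genes.

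Outside the 39 genes, most listed genes that induce interferon or carry its signal overlapped between genotypes. Among the 39, the sensors of the RIG-I family and Irf7 did not overlap, while Ifnar1 and Irf9 did. Of 20 genes for sensors, adaptors and kinases, 0 passed, 1 had an unadjusted p below 0.05, 3 had knockouts above wild types without overlap and 1 below, and the median log2 fold change was 0.09. These shares were 15% above, 5% below and 5% with such a p. They were near those of all genes tested, at 11.5%, 10.4% and, for higher levels, 8.35%. The log2 fold change was above 0 in 15 of the 20 genes (75%), against 51.2% of all genes tested. Ikbke, a kinase that activates IRF3 and IRF7, averaged 72.9 ± 2.94 CPM in knockouts, against 62.3 ± 4.24 CPM in wild types, and Irf5, a factor of inflammatory cytokine genes, averaged 111 ± 8.40 CPM in knockouts, against 101 ± 4.23 CPM in wild types (SD, n = 3 each; edgeR adjusted p = 0.171 and 0.303). Of 9 genes of receptor signalling outside the 39, 0 passed, and the interferon gamma receptor chain Ifngr2 had a log2 fold change of -0.14 ± 0.06 (SE, edgeR adjusted p = 0.282). Of 7 genes that restrain the signal, 0 passed and 0 had an unadjusted p below 0.05, and the 2 of smallest p were Ptpn11 at -0.08 ± 0.05 and Socs1 at 0.15 ± 0.14. The differences between these lists were not tested.

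**Figure D4:**
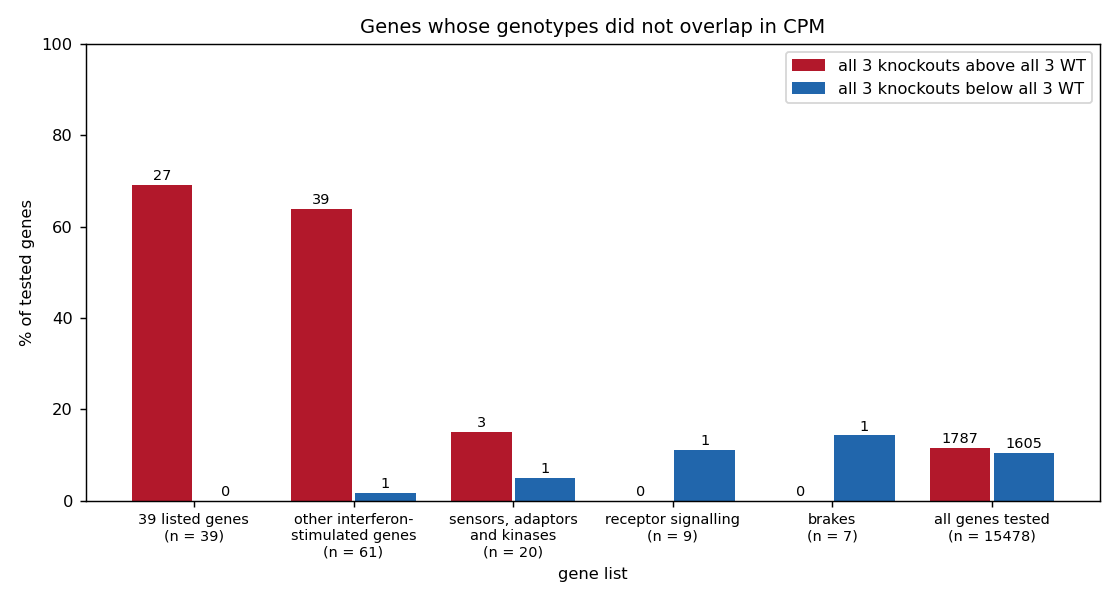
Share of tested genes in each list whose 3 knockouts all lay above (red, left bar) or all below (blue, right bar) the 3 WT in CPM, with the number of genes above each bar. The 39 listed genes (69.2%) and the other interferon-stimulated genes (63.9%) stand above the share of all genes tested (11.5%).

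Cell markers were read in the same libraries. Of 12 marker lists of cell types, the summed CPM of 2 lay higher in all knockouts than in all wild types and that of 10 overlapped. The marrow stroma list held 7 genes, none of them at 0, of which 4 had knockouts above wild types without overlap, and its lowest library was WT 2 with a sum of 2037 CPM. Most of this sum was Cxcl12, at 4021 to 4897 CPM in knockouts and 1327 to 3168 CPM in wild types. Pdgfra, Pdgfrb and Vcam1 overlapped between genotypes. The osteoclast list held 6 genes, of which 3 were higher without overlap, 1 of these, the proton pump subunit Atp6v0d2, rose (log2 fold change 1.06 ± 0.12, edgeR adjusted p = 0.0318), and 2, Ocstamp and Dcstamp, had at most 10 counts in every library. Its sum was 90.3 to 112 CPM in knockouts and 63.9 to 72.5 CPM in wild types. The antibody joining chain gene Jchain, of the B and plasma cell list, was at 208 to 248 counts per library in knockouts, against 6 to 33 in wild types, and rose (edgeR adjusted p = 0.0141). The stroma and osteoclast sums lay higher in knockouts, as most of the interferon-stimulated genes did. Among the knockouts, the interferon-stimulated genes held their largest share of counts in knockout B, at 0.319%. The stroma sum was also highest there, at 6087 CPM, but the osteoclast sum was the lowest of the knockouts, at 90.3 CPM. The part of either list in the result was not tested. The monocyte and macrophage list overlapped, with 2 of 8 genes higher and 1 lower without overlap. The T and NK cell list overlapped too, with 3 of 8 genes higher and 1 lower. In that list 4 genes had at most 10 counts in every library. In the osteoblast and bone list, whose sum also overlapped, 2 of 7 genes were higher and 1 lower. Most of its sum was Col1a1, at 7715 to 8402 CPM in knockouts and 8515 to 10546 CPM in wild types. In the same list Bglap and Bglap2 had at most 10 counts in every library. Over all genes tested, 11.5% lay higher and 10.4% lower without overlap. The neutrophil list summed to 95.4 to 539 CPM in knockouts and 140.4 to 448 CPM in wild types. Mitochondrially encoded genes held 2.094% to 2.227% of counts in knockouts and 2.230% to 2.344% in wild types, so all 3 knockouts lay below all 3 wild types, and the part of this difference in the result was not tested.

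**Figure D5:**
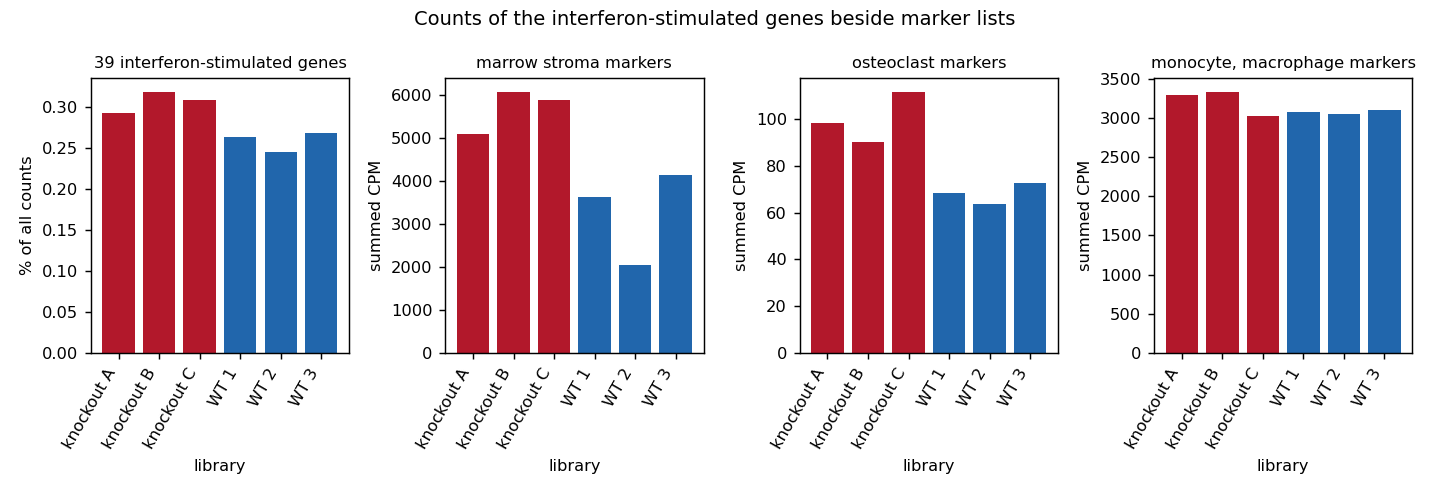
Share of all counts held by the 39 genes, and summed CPM of 3 marker lists, in each knockout (red) and WT (blue) library. The 39 genes held 0.293% to 0.319% of counts in knockouts and 0.245% to 0.269% in WT, and WT 2 was the lowest library for them and for the stroma markers. Most of the stroma sum was Cxcl12.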

How the data were processed

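The authors deposited a table of genes with positions, exon lengths, FPKM values and raw counts per library, in the layout of a featureCounts table per the file headers. RNA labelled bone marrow, 1.3 µg per library, was made into libraries with a SMARTer mRNA kit per the labels' protocols. The builds GRCm38 and mm10, names of the same mouse assembly, come from the submitters' processing notes. Which aligner, counter, annotation and strand setting were used is not given in the sources used here. Deposited FPKM values equal count over length and an effective library size of 0.982 to 1.02 times the total, within a relative tolerance of 1e-06. FPKM was used for levels and the deposited counts for tests.

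Counts were tested with edgeR 4.0.16 in R 4.3.3: filterByExpr kept 15478 genes (all 39 listed), with TMM scaling, glmQLFit and a two-sided glmQLFTest of genotype, and Benjamini-Hochberg adjustment over all genes tested, at a threshold of 0.05. Fold changes are log2 of knockout over WT with standard errors derived from the test statistic. CPM is TMM-scaled. The method was checked on simulated counts with larger changes than any of the 39 genes had and the same spread for every gene. That check does not cover changes as small as those of the 39 genes. The design text names 3 different mice per genotype, so p-values measure the spread between these mice. Limits from a count of 0 cover counting error alone. The members and lists were chosen with earlier results of these data known. Named genes were all 39, with full values for those past the threshold, the 10 of smallest p and the 4 of highest mean FPKM, and from each other list those past the threshold or else the 2 of smallest p, except for a gene that is not reported here; genes sharing sequence with a member were added after values were seen, as were the families named at the end. Word sharing used GENCODE M21 transcripts (GRCm38). Alternatives were RLE, upper-quartile and no scaling, 2 other filters, DESeq2 1.42.0, limma-voom (limma 3.58.1), robust edgeR and each library left out in turn; 2 on the tissue traces, which kept only the libraries with Gh counts or added Gh status as a covariate, were chosen after the data were seen.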

Additional observations from a re-analysis of the deposited data

How the results depend on the processing

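All 39 genes kept the sign of the log2 fold change under each of 14 planned and 2 added alternatives, except Isg20, which was at -0.03 on all libraries, at 0.0193 without knockout C, and at -0.114 to 0.0193 over the fits that left out 1 library. The median of the 39 genes was 0.18 to 0.28 over the alternatives. The count of listed genes that passed depended on the settings. It was 15 with no low-count filter, 10 with DESeq2, 0 with limma-voom, 0 with a filter of CPM of 1 in 3 libraries, and 0 to 4 when 1 library was left out. It was 0 without WT 1, without knockout A, B or C, among the libraries with Gh counts, and with Gh status as a covariate, and 4 without WT 3 (Ifi27l2a, Oasl2, Irf7 and Rtp4), where 1.10% of all genes passed. Ifi27l2a had adjusted p-values of 8.39e-08 to 0.625, among them 0.0541 with the stricter filter and 0.0654 with limma-voom. No listed gene passed with lower levels under any alternative. In limma-voom, the stricter filter and the fits with 1 library left out, 19 to 28 listed genes had an unadjusted p below 0.05. All of them had higher levels in knockouts, against 4.53% to 11.2% of all genes. Knockouts lay above wild types without overlap in 27 of the 39 genes under each other scaling and filter, against 7.85% to 13.3% of all genes, and in 27 to 34 with 1 library left out, against 14.3% to 20.7% of all genes. All knockouts lay below all wild types in 1 listed gene when WT 1, knockout A or knockout B was the library left out, and among the libraries with Gh counts. The share of all genes that lay below was 10.4% on all 6 libraries and is not given for these fits. Over all genes, 9 rose and 7 fell; these counts were 518 and 452 with no filter, 229 and 267 with DESeq2, and 4 and 2 with limma-voom, and 4 fell with the stricter filter. With 1 library left out they were 0 to 86 higher and 0 to 86 lower, and both were 0 among the libraries with Gh counts and with Gh status as a covariate. Of the 61 other interferon-stimulated genes 18 passed with no filter, 14 with DESeq2 and 0 to 3 with 1 library left out. DESeq2 and the unfiltered fit also called more of all genes, at 3.20% each. The causes of these changes were not tested. No paired analysis was possible because the wild types carry numbers and the knockouts letters. With 3 libraries per genotype and fold changes mostly under 0.4 on the log2 scale, precision is limited.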

Other observations

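Families among the further interferon-stimulated genes, picked out after their values were seen, gave the following values, with no gene past the adjusted threshold. Genes of these families outside the list of 61 were not counted. All 7 Ifi200 family genes on the list, which encode sensors and regulators that bind DNA, had knockouts above wild types without overlap. Their log2 fold changes ran from 0.24 for Mndal to 0.92 for Ifi205, and Ifi204 averaged 152 ± 12.4 CPM in knockouts, against 124 ± 8.02 CPM in wild types (SD, n = 3 each). All 4 Schlafen genes on the list did likewise, from 0.15 for Slfn8 to 0.95 for Slfn1. Slfn5 averaged 184 ± 6.32 CPM in knockouts, against 149 ± 11.7 CPM in wild types. Of 3 PARP genes outside the listed ones, Parp10 and Parp12 had knockouts above wild types without overlap and Parp11 overlapped, with log2 fold changes of 0.15 to 0.20. The chemokine gene Cxcl10, which interferon induces and which was likewise picked out after its values were seen, averaged 0.869 ± 0.105 CPM in knockouts, against 1.02 ± 0.807 CPM in wild types. The share of all genes tested whose knockouts lay above wild types without overlap was 11.5%.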
